A study of Mus musculus with 8 samples.

Results

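The genes described are 45 cell cycle genes of the mouse, among 43432 genes counted by RNA sequencing. They were taken by symbol and sorted by the phase in which they act: 2 D-type cyclins of G1, 4 regulators of the step from G1 into S phase, 15 genes of S phase and DNA replication, and 24 genes of G2 and mitosis. All 45 had an identifier in the count table, and all 45 passed the filter on low counts that left 14906 tested genes. The libraries came from lung cells of C57BL/6J mice aged 14 weeks, sorted as EpCAM+CD45-, which keeps epithelial cells and drops leukocytes. Mice with both copies (C/C, n = 2 libraries) or 1 copy (C/+, n = 3 libraries) of ChiaRed, a reporter of acidic mammalian chitinase (AMCase, encoded by Chia1), gave ChiaRed+ cells of that gate. Wild-type mice (WT, n = 3 libraries) carried no reporter and gave the whole gate, so that the genotype and the sort of the WT libraries cannot be told apart. The labels do not say whether libraries came from separate mice, so a p-value here speaks to the spread among these libraries, which may be partly technical.

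Cells that divide copy their DNA in S phase and separate it in mitosis, and the genes of these phases are switched on in turn. In G1, D-type cyclins with their kinases release E2F factors, which raise the genes for cyclin E and for the replication machinery, including the Mcm helicase, its loaders Cdc6 and Cdt1, and the enzymes that make deoxynucleotides. In G2, the factor Foxm1 and the MuvB complex raise the genes for cyclin B, Cdk1, the mitotic kinases and the spindle, and the anaphase-promoting complex with Cdc20 and Ube2c ends mitosis by breaking cyclin B down. Adult lung epithelium is known to divide rarely, and alveolar type 2 cells, which make surfactant, are known as progenitors of the alveoli.

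The promoters of both groups of genes are known for short motifs, the CHR element and CCAAT boxes in G2 and mitosis genes and the E2F site in S phase genes, so the bases before the start of transcription are shown for 6 members on which the results turn. Ube2c, Ccnb2 and Top2a are G2 and mitosis genes that were higher in C/+ than in WT cells, and Bub1 is a mitosis gene that was not. Rrm2 is a replication gene that was higher, and Mcm6 is a replication gene that was not. Each sequence holds the 250 bases before the start listed by RefSeq on GRCm38.p6, read 5′ to 3′ on the strand of the gene, with each match to a motif in capitals. The regions are chr2:164769679-164769928 on the plus strand for Ube2c, chr9:70421555-70421804 on the minus strand for Ccnb2, chr11:99024190-99024439 on the minus strand for Top2a, chr2:127831860-127832109 on the minus strand for Bub1, chr12:24708004-24708253 on the plus strand for Rrm2 and chr1:128359706-128359955 on the minus strand for Mcm6.
Ube2c: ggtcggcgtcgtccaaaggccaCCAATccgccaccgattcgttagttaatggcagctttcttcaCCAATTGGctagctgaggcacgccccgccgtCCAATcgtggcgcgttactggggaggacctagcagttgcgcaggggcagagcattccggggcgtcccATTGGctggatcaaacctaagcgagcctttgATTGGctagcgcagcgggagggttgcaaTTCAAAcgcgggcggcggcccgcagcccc
Ccnb2: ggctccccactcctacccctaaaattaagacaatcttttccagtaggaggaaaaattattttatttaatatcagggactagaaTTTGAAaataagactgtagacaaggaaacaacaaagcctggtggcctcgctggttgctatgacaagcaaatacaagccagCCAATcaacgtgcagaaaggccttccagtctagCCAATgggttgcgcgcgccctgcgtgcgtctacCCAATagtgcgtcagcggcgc
Top2a: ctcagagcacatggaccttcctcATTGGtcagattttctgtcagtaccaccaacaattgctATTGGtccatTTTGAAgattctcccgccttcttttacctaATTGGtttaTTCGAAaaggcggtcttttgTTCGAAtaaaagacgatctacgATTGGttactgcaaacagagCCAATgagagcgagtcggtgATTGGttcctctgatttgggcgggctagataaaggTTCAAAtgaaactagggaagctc
Bub1: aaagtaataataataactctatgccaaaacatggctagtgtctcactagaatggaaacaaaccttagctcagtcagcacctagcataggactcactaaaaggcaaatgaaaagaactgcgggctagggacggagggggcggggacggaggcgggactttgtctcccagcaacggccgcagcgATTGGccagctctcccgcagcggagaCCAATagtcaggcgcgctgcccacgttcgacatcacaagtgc
Rrm2: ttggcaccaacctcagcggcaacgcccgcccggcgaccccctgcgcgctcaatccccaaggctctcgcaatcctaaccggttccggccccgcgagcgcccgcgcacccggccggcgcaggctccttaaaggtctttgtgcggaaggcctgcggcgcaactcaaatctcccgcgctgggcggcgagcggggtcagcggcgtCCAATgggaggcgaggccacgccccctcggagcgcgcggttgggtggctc
Mcm6: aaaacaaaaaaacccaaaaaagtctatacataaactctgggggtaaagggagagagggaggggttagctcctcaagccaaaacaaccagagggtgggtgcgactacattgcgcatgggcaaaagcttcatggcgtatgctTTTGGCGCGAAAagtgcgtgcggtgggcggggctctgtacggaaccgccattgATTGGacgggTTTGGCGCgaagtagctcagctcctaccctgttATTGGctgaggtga
The motifs searched on both strands were TTTGAA and TTCGAA for CHR, CCAAT, and TTTCCCGC, TTTCGCGC, TTTGCCGC and TTTGGCGC for E2F. Ube2c held 6 CCAAT matches, of which a pair overlaps on opposite strands, and 1 CHR match that begins 29 bases before the start. Ccnb2 held 3 CCAAT matches, which begin 87, 54 and 21 bases before the start, and 1 CHR match. Top2a held 6 CCAAT and 4 CHR matches, the nearest CHR match beginning 23 bases before the start, and Rrm2 held 1 CCAAT match. Mcm6 held 3 E2F matches, of which a pair overlaps, and 2 CCAAT matches, and the bases that follow its listed start were not found in a GENCODE transcript of the gene. Sequences were matched for 35 of the 45 members. CCAAT stood in 16 of 19 G2 and mitosis promoters (84.2%) and in 9 of 13 S phase promoters (69.2%). With the first listed start of each gene, as for the members, it stood in 34.5% of 27025 promoters of the same length. CHR stood in 8 of 19 (42.1%) and 3 of 13 (23.1%) promoters, against 17.4% of those 27025. E2F stood in 1 of 19 (5.26%) and 4 of 13 (30.8%), against 1.91% of those 27025. A match is a description of these letters and not a binding site, and Bub1, which was not called, held 2 CCAAT matches, whereas Birc5, which was called, held no match to any motif.

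Total counts ranged from 17057216 to 52319957 per library. Values are given in CPM, the count of a gene scaled to a common library size after TMM scaling of the totals, and a change is a log2 fold change (log2FC) given with its standard error (SE). Genes were called at a Benjamini-Hochberg adjusted p under 0.05 in edgeR's quasi-likelihood test over the 14906 tested genes. An unadjusted p under 0.05 in that test was reached by 3000 of them in C/+ against WT, 3116 in C/C against C/+ and 3299 in C/C against WT. The summed level of 10 alveolar type 2 markers was 183621 to 251839 CPM, of which Sftpc, surfactant protein C, gave 104356 to 166725 CPM. Chia1 had 1.45 and 0.365 CPM in C/C, 303, 341 and 223 CPM in C/+, and 267, 454 and 425 CPM in WT, so it was near 0 in the mice with 2 reporter copies. Both C/C libraries, C/+ 2, C/+ 3 and WT 1 were read as female from Xist and Y-linked counts, and C/+ 1, WT 2 and WT 3 as male, and mitochondrial genes took 2.90% to 6.67% of counts. The counting strand is not given in the sources used here, so reads of genes that overlap on opposite strands may not be separated. This touches Gins2, whose exons overlap those of Gse1 over 67.3% of their length, Kif20a, which overlaps Cdc23 over 29.3%, and Ccnd1, which overlaps LTO1 over 23.4%, and their values are uncertain to that extent. The same holds for Ccne2, which overlaps Ints8 over 17.4%, Ccna2, which overlaps Exosc9 over 12.5%, and Prc1, which overlaps Rccd1 over 11.1%. It also holds for Mcm7, which overlaps Ap4m1 over 7.25%, and Cdc45, which overlaps Ufd1 over 5.96%. Ufd1 had 878 to 2541 counts per library and Cdc45 only 34 to 141. Ints8 had 461 to 1584 counts per library and Ccne2 only 10 to 71. Cdc20 shares 2.84% of its exons with Elovl1, which had 40317 to 125363 counts per library, so its values are uncertain too. Ube2c overlaps Tnnc2 over 22.8%, and Tnnc2 itself had 0 to 10 counts per library.

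**Figure D1:**
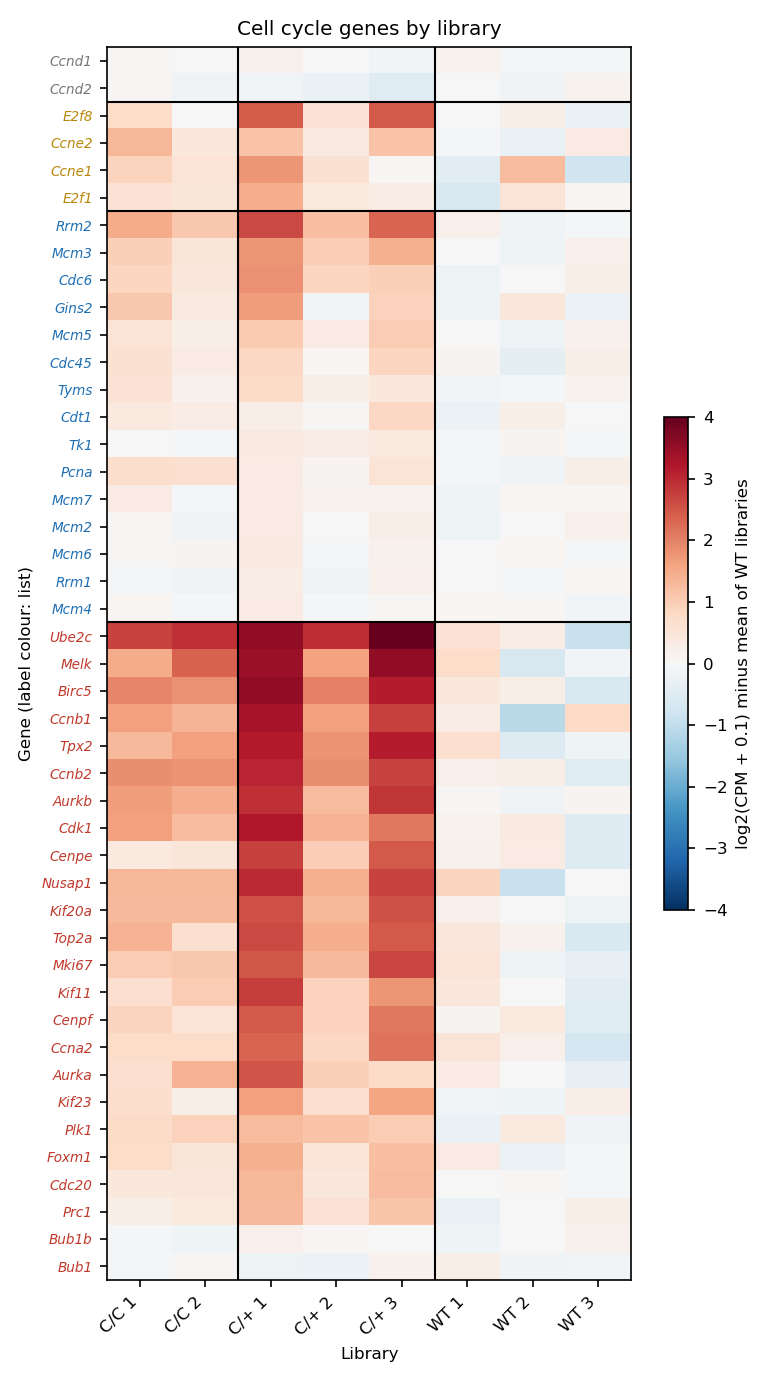
Level of the 45 cell cycle genes in each of the 8 libraries, as log2(CPM + 0.1) minus the mean of the WT libraries, with gene labels coloured by list (grey D-type cyclins, ochre G1/S regulators, blue S phase and replication, red G2 and mitosis). The G2 and mitosis block is high in C/+ 1 and C/+ 3, and lower in C/+ 2 and both C/C libraries, while Bub1, Bub1b and most Mcm genes are near WT in each library.

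In ChiaRed+ cells of C/+ mice, genes of mitosis were higher than in WT epithelial cells, and most genes of S phase were not called. Of the 24 G2 and mitosis genes 20 rose and 0 fell, and of the 15 S phase and replication genes 2 rose and 0 fell, against 3.42% of all tested genes called higher, 0.503% called lower and 3.92% called in either direction. The median log2FC was 2.24 over the G2 and mitosis genes and 0.41 over the S phase and replication genes, beside 0.00496 over all tested genes. Each C/+ library was above each WT library for 22 of the 24 G2 and mitosis genes and for 7 of the 15 S phase genes, a pattern that 14.1% of all tested genes had. The 4 G1/S regulators had a median log2FC of 0.96 and the 2 D-type cyclins of -0.12, with 0 members of either list called by edgeR (1 and 0 at an unadjusted p under 0.05) and E2f8 called by DESeq2, which called 27 members and 6.13% of all tested genes higher. In bulk samples, more cells in a phase and more RNA per cell cannot be told apart.

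The D-type cyclins, which start the passage through G1, were not called in any comparison. Ccnd1 had 264 and 254 CPM in C/C, 292, 259 and 240.2 CPM in C/+, and 284, 247 and 241 CPM in WT. Ccnd2 had 35.9 and 31.6 CPM in C/C, 32.3, 28.8 and 24.4 CPM in C/+, and 34.5, 31.5 and 37.8 CPM in WT. The groups overlapped for both genes, and the log2FC of C/+ against WT was 0.03 (SE 0.11, adjusted p = 0.887) for Ccnd1 and -0.28 (SE 0.13, adjusted p = 0.253) for Ccnd2 in edgeR.

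The regulators of the G1/S step had low counts. Ccne1, a cyclin that pairs with Cdk2, had 0.826 and 0.626 CPM in C/C, 1.60, 0.653 and 0.412 CPM in C/+, and 0.259, 1.09 and 0.186 CPM in WT. Its relative Ccne2 had 1.63 and 0.834 CPM in C/C, 1.44, 0.793 and 1.41 CPM in C/+, and 0.569, 0.474 and 0.762 CPM in WT. The C/+ and WT libraries overlapped for Ccne1, and for Ccne2 each C/+ library lay above each WT library. E2f1, the activating factor, had 2.71 and 2.55 CPM in C/C, 5.12, 2.38 and 2.23 CPM in C/+, and 1.14, 2.61 and 1.92 CPM in WT. E2f8, a repressor among the E2F factors, had 0.574 and 0.313 CPM in C/C, 2.06, 0.513 and 2.12 CPM in C/+, and 0.310, 0.380 and 0.242 CPM in WT. E2f8 did not overlap between C/+ and WT and had the highest log2FC of the 4 genes at 2.35 (SE 0.62, adjusted p = 0.0626 in edgeR), whereas E2f1 overlapped (log2FC 0.82, SE 0.40, adjusted p = 0.283).

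Among the S phase genes, the members of highest CPM stood near their WT level in C/+ cells. Pcna, the clamp that holds DNA polymerase on its template (chromosome 2, 132249162 to 132253314 on the minus strand of GRCm38), had 43.8 and 41.1 CPM in C/C, 33.1, 28.8 and 38.6 CPM in C/+, and 24.9, 24.2 and 31.1 CPM in WT. Mcm6, a subunit of the replicative helicase, had 28.3 and 29.8 CPM in C/C, 34.8, 26.6 and 31.1 CPM in C/+, and 27.5, 28.7 and 26.2 CPM in WT. For both genes C/+ and WT overlapped, with log2FC 0.32 (SE 0.14, adjusted p = 0.224) for Pcna and 0.17 (SE 0.12, adjusted p = 0.455) for Mcm6 in edgeR. Mcm7 had 21.7 and 16.7 CPM in C/C, 21.7, 19.0 and 19.1 CPM in C/+, and 15.5, 18.2 and 18.3 CPM in WT. Rrm1, the large subunit of ribonucleotide reductase, had 19.8 and 19.3 CPM in C/C, 25.8, 19.1 and 24.1 CPM in C/+, and 21.0, 20.2 and 22.0 CPM in WT. Neither Mcm7 (log2FC 0.20, SE 0.14) nor Rrm1 (log2FC 0.13, SE 0.13) was called, and C/+ and WT overlapped for Rrm1 but not for Mcm7.

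The replication genes that rose in C/+ cells were Rrm2 and Mcm3. Rrm2, the small subunit of ribonucleotide reductase, had 3.72 and 2.81 CPM in C/C, 8.39, 3.03 and 6.76 CPM in C/+, and 1.47, 1.14 and 1.21 CPM in WT. Mcm3, another helicase subunit, had 7.60 and 5.42 CPM in C/C, 13.3, 7.60 and 10.4 CPM in C/+, and 3.80, 3.37 and 4.41 CPM in WT. Each C/+ library lay above each WT library for both genes, and C/+ 2 was the lowest of the C/+ libraries. The log2FC was 2.25 for Rrm2 (SE 0.36, adjusted p = 0.0140 in edgeR) and 1.43 for Mcm3 (SE 0.24, adjusted p = 0.0156 in edgeR). The remaining replication genes were the helicase subunits Mcm2, Mcm4 and Mcm5, the helicase partners Cdc45 and Gins2, the loaders Cdc6 and Cdt1, and the nucleotide enzymes Tyms and Tk1. The 13 replication genes that were not called had log2FC of 0.12 to 1.39 and edgeR adjusted p of 0.0563 to 0.650, so all 15 had a positive estimate. Cdc6 (log2FC 1.39, SE 0.41), Gins2 (log2FC 1.09, SE 0.51) and Mcm5 (log2FC 0.83, SE 0.21) had the highest estimates among those not called.

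Most G2 and mitosis genes were higher in C/+ cells. Mki67, a coat protein of mitotic chromosomes and the usual marker of dividing cells (chromosome 7, 135689784 to 135716361 on the minus strand of GRCm38), had 7.66 and 8.05 CPM in C/C, 21.2, 9.38 and 24.1 CPM in C/+, and 5.403, 3.23 and 2.98 CPM in WT. Top2a, the topoisomerase that untangles sister chromatids (chromosome 11, 98992943 to 99024189 on the minus strand), had 9.09 and 5.47 CPM in C/C, 22.0, 9.66 and 19.3 CPM in C/+, and 4.71, 3.89 and 2.21 CPM in WT. Neither gene overlapped between C/+ and WT, and C/+ 1 and C/+ 3 stood far above C/+ 2 for both. The log2FC of C/+ against WT was 2.23 for Mki67 (SE 0.34, adjusted p = 0.0116 in edgeR) and 2.25 for Top2a (SE 0.36, adjusted p = 0.0139 in edgeR).

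The cyclins and kinases that drive mitosis moved in the same direction. Ccnb2, a B-type cyclin, had 2.66 and 2.55 CPM in C/C, 6.14, 2.66 and 4.82 CPM in C/+, and 0.776, 0.806 and 0.446 CPM in WT. Its partner Cdk1 had 4.498 and 3.39 CPM in C/C, 13.3, 3.73 and 6.23 CPM in C/+, and 1.53, 1.80 and 0.930 CPM in WT. Every C/+ library was above every WT library, with log2FC 2.78 (SE 0.38, adjusted p = 0.0100) for Ccnb2 and 2.49 (SE 0.45, adjusted p = 0.0187) for Cdk1 in edgeR. Ccna2, the cyclin of S phase and G2, rose with a log2FC of 1.89 (SE 0.41), the kinase Aurkb with 2.74 (SE 0.48), Plk1 with 1.19 (SE 0.28), Melk with 3.36 (SE 0.66) and the transcription factor Foxm1 with 1.10 (SE 0.27). Ccnb1 had 0.551 and 0.443 CPM in C/C, 1.96, 0.560 and 1.29 CPM in C/+, and 0.155, 0 and 0.260 CPM in WT. Aurka, the kinase of spindle poles, had 1.22 and 2.14 CPM in C/C, 4.77, 1.54 and 1.35 CPM in C/+, and 0.957, 0.759 and 0.576 CPM in WT. C/+ and WT did not overlap for Ccnb1 or Aurka, but edgeR called neither (log2FC 3.00, SE 0.78, adjusted p = 0.0585 for Ccnb1, and log2FC 1.77, SE 0.52, adjusted p = 0.0918 for Aurka).

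Genes that end mitosis included the member with the highest log2FC. Ube2c, the ubiquitin-conjugating enzyme of the anaphase-promoting complex (chromosome 2, 164769898 to 164778822 on the plus strand), had 2.94 and 3.39 CPM in C/C, 5.26, 3.45 and 7.59 CPM in C/+, and 0.595, 0.474 and 0.149 CPM in WT. Cdc20, an activator of the same complex, had 9.18 and 9.33 CPM in C/C, 17.3, 9.38 and 16.2 CPM in C/+, and 6.85, 7.07 and 6.64 CPM in WT. Prc1, which bundles the microtubules of the central spindle, had 13.7 and 15.01 CPM in C/C, 28.2, 17.3 and 24.9 CPM in C/+, and 9.59, 11.6 and 13.6 CPM in WT. C/+ and WT did not overlap for any of these genes, and the log2FC was 3.79 for Ube2c (SE 0.48, adjusted p = 0.00906), 1.07 for Cdc20 (SE 0.21, adjusted p = 0.0250) and 1.02 for Prc1 (SE 0.19, adjusted p = 0.0208) in edgeR. The spindle motors and their partners also rose, Kif11 with a log2FC of 2.07 (SE 0.47), Kif20a with 2.33 (SE 0.35), Kif23 with 1.37 (SE 0.29), Tpx2 with 2.85 (SE 0.44) and Nusap1 with 2.41 (SE 0.51). So did the kinetochore genes Cenpe, with 2.41 (SE 0.51), and Cenpf, with 2.02 (SE 0.41), and Birc5, a subunit of the chromosomal passenger complex, with 3.20 (SE 0.46). Over the 20 called genes, edgeR adjusted p ran from 0.00906 to 0.0472.

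The spindle checkpoint kinases Bub1 and Bub1b stood apart from the other mitosis genes. Bub1 had 20.9 and 22.9 CPM in C/C, 19.3, 19.0 and 25.0 CPM in C/+, and 26.0, 20.2 and 20.6 CPM in WT. Bub1b had 11.1 and 10.1 CPM in C/C, 13.1, 11.8 and 11.3 CPM in C/+, and 10.2, 11.3 and 12.8 CPM in WT. The C/+ and WT libraries overlapped for both, with log2FC of -0.08 (SE 0.15) for Bub1 and 0.08 (SE 0.14) for Bub1b and an edgeR adjusted p of 0.795 for each. The sign of both estimates changed when WT 1 was left out, to 0.041 for Bub1 and to -0.0025 for Bub1b.

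**Figure D2:**
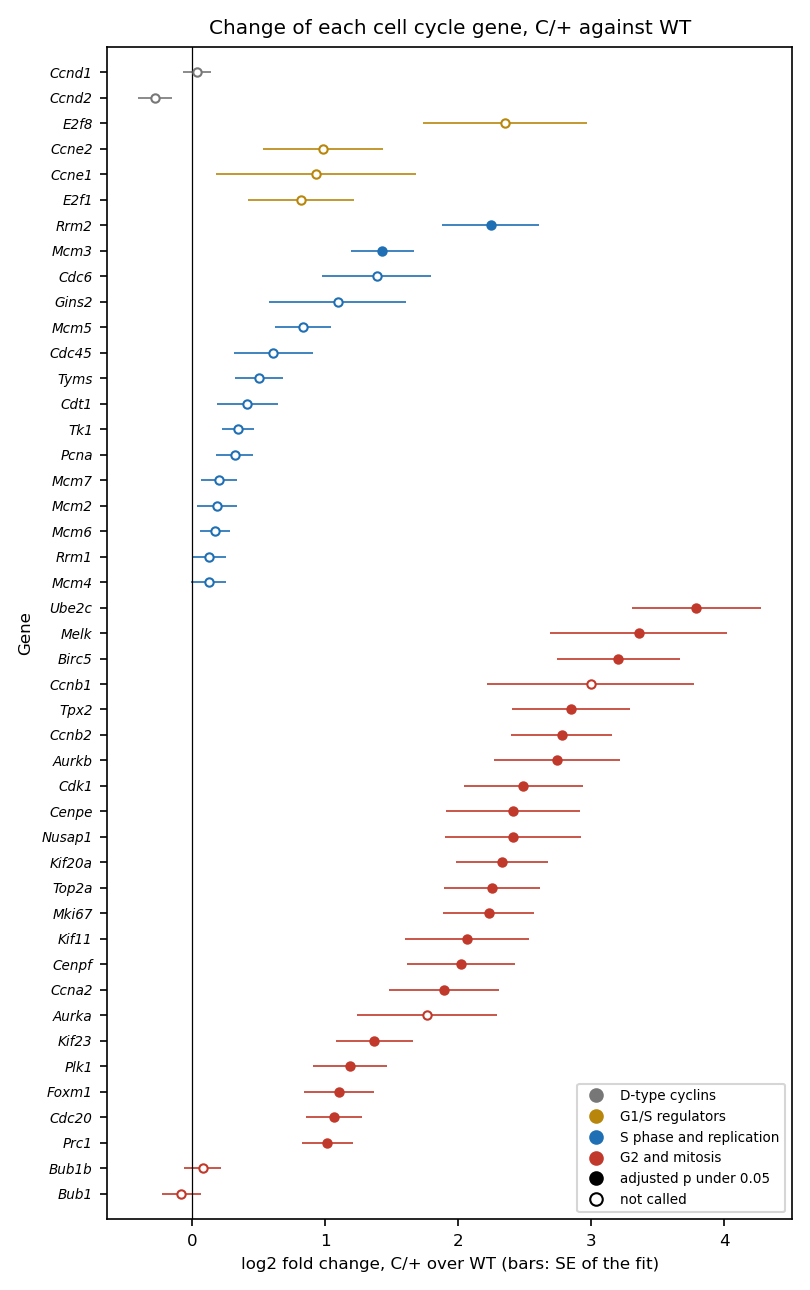
The log2 fold change of C/+ over WT for each of the 45 genes, with bars for the SE of the edgeR fit and filled points for an adjusted p under 0.05. The filled points are 20 G2 and mitosis genes (red) and 2 replication genes (blue), and the open points include all G1/S regulators (ochre) and both D-type cyclins (grey).

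The libraries of the C/+ group differed among themselves. C/+ 2 was the lowest C/+ library for all 15 S phase genes and for 21 of the 24 G2 and mitosis genes, and C/+ 1 was the highest for 20 of the 24. The number of members called between C/+ and WT was 22 in all 8 libraries, 6 without C/+ 1, 5 without WT 2 and 10 without WT 3, and 16 to 23 without any other library. Calls over all genes fell too, and were 585 with all libraries, 103 without C/+ 1, 127 without WT 2 and 175 without WT 3. Within the G2 and mitosis list it was 6 without C/+ 1, 5 without WT 2 and 8 without WT 3, and within the S phase list 0 without C/+ 1 or WT 2. Mki67 and Top2a missed the threshold when a library was left out in 1 and 2 fits, where their adjusted p was at most 0.0513. The members called in each of the 8 fits that left out 1 library were 5 of the 22, namely Ccnb2, Birc5, Tpx2, Kif20a and Ube2c. The median log2FC of the G2 and mitosis genes was 1.93 to 2.53 in those fits. With sex as a covariate 29 members were called higher, 22 of G2 and mitosis and 5 of S phase, beside 7.02% of all tested genes.

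To set the phase lists side by side in each library, log2 CPM was averaged over a list and the mean of the WT libraries was subtracted. The G2 and mitosis mean was 1.10 and 1.11 in C/C, 2.42, 1.21 and 2.15 in C/+, and 0.29, -0.07 and -0.22 in WT. The S phase mean was 0.52 and 0.26 in C/C, 0.89, 0.27 and 0.71 in C/+, and -0.06, -0.01 and 0.07 in WT. Both means were above every WT library in all 5 reporter libraries, and C/+ 2 lay near the C/C libraries on both. The G2 and mitosis mean exceeded the S phase mean by 0.72 ± 0.19 in C/C (SD, n = 2) and by 1.31 ± 0.32 in C/+ (SD, n = 3), around 0 ± 0.32 in WT (SD, n = 3). The difference between the lists was not tested. Among male libraries, C/+ exceeded WT by 2.56 on the G2 and mitosis mean and by 0.86 on the S phase mean, with 1 library against 2. Among female libraries the differences were 1.39 and 0.54, with 2 libraries against 1.

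**Figure D3:**
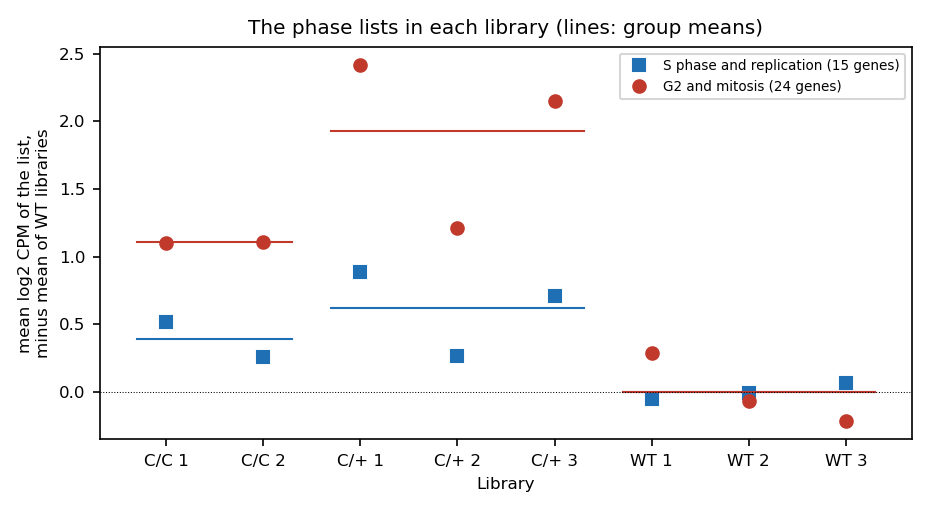
Mean log2 CPM of the S phase and replication list (blue squares, 15 genes) and of the G2 and mitosis list (red circles, 24 genes) in each library, minus the mean of the WT libraries, with lines for group means. The red circles stand above the blue squares in all 5 reporter libraries, and C/+ 2, at 1.21 and 0.27, lies close to the C/C libraries.

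Between ChiaRed+ cells that carry both copies of the reporter and those that carry 1 copy, no member passed the test. By edgeR 0 of 45 were called, against 1.75% of all tested genes called higher, 5.33% called lower and 7.08% called in either direction by edgeR. At an unadjusted p under 0.05 in edgeR there were 18 of the 45, beside 3116 of the 14906 tested genes. DESeq2 called 6 lower, all of G2 and mitosis, beside 7.78% of all tested genes called lower by DESeq2. The median log2FC of C/C against C/+ was -0.99 over the G2 and mitosis genes and -0.24 over the S phase genes, beside -0.00817 over all tested genes. Estimates were negative for 23 of 24 G2 and mitosis genes and 14 of 15 S phase genes. In 15 of the 24 G2 and mitosis genes and 2 of the 15 S phase genes each C/C library was below each C/+ library. That held for 20.2% of all tested genes. The reverse held for 0 G2 and mitosis genes and 1 S phase gene, beside 18.1% of all tested genes. The estimate was -1.21 for Mki67 (SE 0.37, adjusted p = 0.0861 in edgeR), -1.22 for Top2a (SE 0.39, adjusted p = 0.0992 in edgeR) and -1.92 for Cenpe, the kinetochore motor (SE 0.56, adjusted p = 0.0721 in edgeR), the largest decrease among members. Without C/+ 2, 11 members were called, 10 of G2 and mitosis and 1 of S phase, without WT 1 it was 2, and without any other library 0. Over all genes 728 were called without C/+ 2 and 1308 without WT 1, against 1056 with all libraries. Among female libraries the G2 and mitosis mean of C/C differed from that of C/+ by -0.58, and the S phase mean by -0.10, with 2 libraries each.

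Pcna differed from most other members in this comparison. Its estimate was 0.34 (SE 0.15, adjusted p = 0.221 in edgeR), it was the 1 member with each C/C library above each C/+ library, and 18.1% of all tested genes had that pattern.

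Against WT cells, the C/C cells had 3 members called higher and 0 called lower by edgeR, beside 1.62% of all tested genes called higher, 1.36% called lower and 2.98% called in either direction. They were Ube2c (log2FC 3.02, SE 0.50, adjusted p = 0.0193), Ccnb2 (log2FC 1.98, SE 0.40, adjusted p = 0.0368) and Pcna (log2FC 0.66, SE 0.15, adjusted p = 0.0455). The median log2FC was 1.02 over the G2 and mitosis genes and 0.38 over the S phase genes, beside -0.0260 over all tested genes. Each C/C library was above each WT library for 21 of the 24 G2 and mitosis genes and 8 of the 15 S phase genes. Of all tested genes 20.8% had that pattern. The reverse held for 0 G2 and mitosis genes and 1 S phase gene, beside 22.6% of all tested genes. Birc5 came next by adjusted p, with a log2FC of 2.02 (SE 0.49, adjusted p = 0.0530 in edgeR), and Mki67 had 1.02 (SE 0.37, adjusted p = 0.138 in edgeR). The call count fell to 0 without C/C 1, without C/C 2 or without WT 2, and was 2 or 3 without any other library. Over all genes 30 were called without C/C 1, 33 without C/C 2 and 39 without WT 2, against 444 with all libraries. DESeq2 called 11 members higher, 9 of G2 and mitosis and 2 of S phase, beside 4.55% of all tested genes. The comparisons of C/+ and of C/C with WT share the WT libraries, so their values are given side by side and not as separate support.

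The order of the group means was C/+ above C/C above WT for 22 of 24 G2 and mitosis genes, 11 of 15 S phase genes, 3 of 4 G1/S regulators and 1 of the 2 D-type cyclins. The share of all tested genes with this order was not counted, so these counts are a description of the members alone. Neighbours in that order were not called apart for most genes, since no member was called between C/C and C/+ by edgeR and 3 were called between C/C and WT.

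Levels between genes were compared per kb of exon. The G2 and mitosis genes had a median level of 0.762 CPM per kb in C/C, 1.49 in C/+ and 0.296 in WT, and the S phase genes of 1.94 in C/C, 2.29 in C/+ and 1.72 in WT. The median difference in level between C/+ and WT was 0.872 CPM per kb for G2 and mitosis genes and 0.552 CPM per kb for S phase genes. Between C/C and WT it was 0.330 CPM per kb for G2 and mitosis genes and 0.346 CPM per kb for S phase genes. On this scale the lists were thus nearer to each other than on the log2 scale, and in C/C the G2 and mitosis median was not the higher. Members with a low WT level had a high log2FC, with Spearman's rho of -0.83 over the 45 members and -0.77 and -0.82 within the G2 and mitosis and the S phase list. These correlations are across genes, which are not independent, and the WT libraries enter both measures. Bub1 and Bub1b, at 5.11 and 2.67 CPM per kb in WT, were among the higher G2 and mitosis genes there, next to Cdc20 at 3.67 CPM per kb, which rose in C/+.

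**Figure D4:**
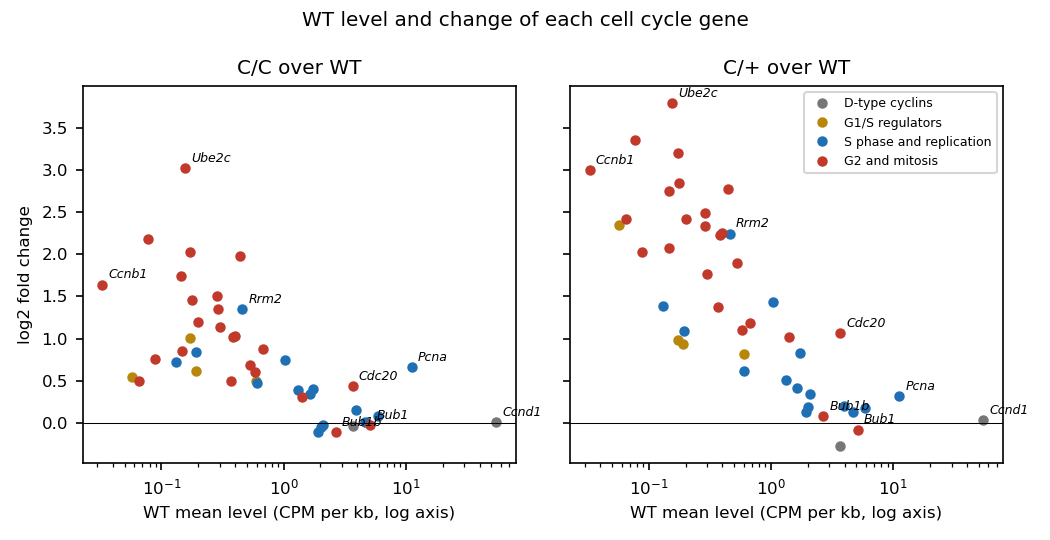
WT level per kb of exon (log axis) and log2 fold change of each cell cycle gene, for C/C over WT on the left and C/+ over WT on the right, with genes coloured by list. Genes of both phases that are scarce in WT lie high, and Ccnd1, Pcna, Bub1 and Bub1b, which are more abundant, lie near 0 in the right panel.

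Other genes of the same processes, from lists that held no member, were counted in the same way. Of 41 tested further mitosis genes 16 rose in C/+ against WT (39.0%), with a median log2FC of 2.09, and 0 fell, beside 3.42% of all tested genes called higher and 0.503% called lower. Racgap1, a regulator of cytokinesis, had 3.74 and 3.597 CPM in C/C, 9.498, 6.30 and 9.82 CPM in C/+, and 2.46, 1.61 and 2.42 CPM in WT. Cdca3, a trigger of mitotic entry, had 3.67 and 4.54 CPM in C/C, 10.7, 4.34 and 7.76 CPM in C/+, and 1.76, 1.28 and 0.948 CPM in WT. The C/+ and WT libraries did not overlap for either gene, and C/+ 2 was again the lowest of the C/+ libraries. The called genes of highest level were Racgap1 (log2FC 1.96, SE 0.25, adjusted p = 0.00906), Cdca3 (log2FC 2.52, SE 0.36, adjusted p = 0.0105), Anln, the contractile ring protein anillin (log2FC 2.18, SE 0.42, adjusted p = 0.0237), and Tacc3, a spindle protein (log2FC 1.07, SE 0.20, adjusted p = 0.0219), all by edgeR. The count was 4 without C/+ 1, 4 without WT 2 and 6 without WT 3, and Racgap1 and Cdca3 were called in each of the 8 fits. Of 29 tested further replication genes 2 rose, Orc6, a subunit of the origin recognition complex (log2FC 0.68, SE 0.13), and Clspn, the checkpoint adaptor claspin (log2FC 2.38, SE 0.54), with a list median of 0.60. That is 6.90% of the list, beside 3.42% of all tested genes called higher. Without C/+ 1, WT 2 or WT 3 no further replication gene was called, it was 3 without C/+ 2 and 1 without any other library, and Clspn was called in 1 of the 8 fits. Of 16 tested G1 kinases, E2F partners and pocket proteins 0 passed in C/+ against WT and 0 in C/C against C/+, with 2 and 6 at an unadjusted p under 0.05 by edgeR and 1 and 2 called by DESeq2. DESeq2 called 28 of the further mitosis genes and 7 of the further replication genes in C/+ against WT. Over all 14906 tested genes, DESeq2 called 1263 in either direction in C/+ against WT, 1609 in C/C against C/+ and 1476 in C/C against WT.

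Between C/C and C/+, 4 of the 41 further mitosis genes fell (9.76%), beside 5.33% of all tested genes. They were, by edgeR, Racgap1 (estimate -1.22, SE 0.27, adjusted p = 0.0235), Ckap2l (estimate -1.55, SE 0.37, adjusted p = 0.0296), Cenpa, the centromeric histone (estimate -1.33, SE 0.35, adjusted p = 0.0454), and Ncapd2, a condensin subunit (estimate -0.75, SE 0.20, adjusted p = 0.0456). The count was 0 without C/C 1, C/C 2 or C/+ 1, 8 without C/+ 2, 1 without C/+ 3 and 2 without WT 2, and DESeq2 called 8. In C/C against WT, by edgeR, Cdca3 rose (log2FC 1.63, SE 0.38, adjusted p = 0.0491), Orc6 rose (log2FC 0.70, SE 0.14, adjusted p = 0.0368) and Tfdp2, a partner of E2F factors, fell (log2FC -0.47, SE 0.10, adjusted p = 0.0394), and each lost its call without either C/C library and without WT 2 or WT 3, Orc6 and Tfdp2 also without WT 1 or C/+ 2.

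Some genes that hold back the cell cycle were higher in C/C cells. Of 18 tested brakes, 0 passed edgeR's test in C/+ against WT, where 1 had an unadjusted p under 0.05 and DESeq2 called 0. In C/C against C/+ 6 rose (33.3%), beside 1.75% of all tested genes, and in C/C against WT 2 rose (11.1%), beside 1.62% of all tested genes. Cdkn1a, the kinase inhibitor p21, had 116 and 115 CPM in C/C, 72.7, 65.7 and 54.2 CPM in C/+, and 48.6, 54.3 and 52.6 CPM in WT. Both C/C libraries were above all others, with an edgeR log2FC of 0.84 over C/+ (SE 0.12, adjusted p = 0.00313) and of 1.16 over WT (SE 0.12, adjusted p = 0.00173), and both calls were made in each of the 8 fits that left out 1 library. Btg2, an antiproliferative gene that also responds early to stimuli, had 1022.3 and 764 CPM in C/C, 389.9, 277 and 185 CPM in C/+, and 225, 357 and 532 CPM in WT. Both C/C libraries were again above all others. Tob1, a relative of Btg2, had 157 and 157 CPM in C/C, 90.6, 55.8 and 102 CPM in C/+, and 92.2, 96.5 and 114 CPM in WT. Gadd45a, a stress gene, had 46.6 and 40.2 CPM in C/C, 22.9, 19.4 and 30.1 CPM in C/+, and 19.3, 26.7 and 23.1 CPM in WT. For both genes the C/C libraries did not overlap with the others, and C/+ overlapped with WT. The log2FC of C/C against C/+ was 1.65 for Btg2 (SE 0.34, adjusted p = 0.0163), and the test was also passed by Tob1 (log2FC 0.93, SE 0.20, adjusted p = 0.0211) and its relative Tob2 (log2FC 0.45, SE 0.10, adjusted p = 0.0171), Gadd45a (log2FC 0.85, SE 0.19, adjusted p = 0.0217) and the kinase inhibitor Cdkn2b (log2FC 0.70, SE 0.19, adjusted p = 0.0494). Gadd45a was also called against WT (log2FC 0.92, SE 0.19, adjusted p = 0.0370). The count in C/C against C/+ was 1 without either C/C library, 3 without C/+ 1 and 2 without C/+ 2, and that in C/C against WT was 1 without C/C 1, C/C 2, WT 1 or WT 2 and 4 without C/+ 3 (5 by DESeq2).

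The kinase inhibitors Cdkn1b and Cdkn1c were not called in any comparison. Cdkn1b, the inhibitor p27, had 82.1 and 85.1 CPM in C/C, 79.3, 65.3 and 85.0 CPM in C/+, and 97.7, 85.9 and 80.2 CPM in WT. Cdkn1c, the inhibitor p57, had 4.34 and 4.51 CPM in C/C, 6.27, 5.50 and 6.29 CPM in C/+, and 4.45, 7.26 and 6.66 CPM in WT. Levels of both overlapped between C/C and WT and between C/+ and WT. Between C/C and C/+ Cdkn1b overlapped too, but both C/C libraries were below all C/+ libraries for Cdkn1c. In C/C against C/+ 3 of the 18 brakes had that pattern and 7 the reverse, beside 20.2% and 18.1% of all tested genes. Cdkn2a, the gene of p16 and Arf, was at 0 in 6 of 8 libraries and did not pass the filter.

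Markers of other cells moved with the mitosis genes in C/+ libraries. Of 12 tested endothelial markers 11 rose in C/+ against WT, as did 5 of 6 club cell, 5 of 7 mesothelial and 5 of 7 mesenchymal markers. Of all tested genes 3.42% were called higher in that comparison. The summed level of the endothelial list was 229 to 259 CPM in C/C, 668 to 1113 CPM in C/+, and 272 to 459 CPM in WT. Esam, the most abundant gene of that list, was its 1 member not called, and Cdh5, the endothelial cadherin, had 5.69 and 6.99 CPM in C/C, 139.5, 149.7 and 102 CPM in C/+, and 47.2, 18.2 and 8.27 CPM in WT. The sum of the club cell list, led by the secretoglobin Scgb1a1, was 490.2 to 720.03 CPM in C/C, 5104 to 9443 CPM in C/+, and 458 to 1099 CPM in WT. The mesothelial list summed to 85.4 to 85.9 CPM in C/C, 120.03 to 281 CPM in C/+, and 50.5 to 84.02 CPM in WT, and the mesenchymal list to 14.1 to 17.4 CPM in C/C, 79.7 to 217 CPM in C/+, and 16.1 to 39.6 CPM in WT. No marker of these lists was at 0 counts in a library, apart from 1 mesenchymal marker at most. The endothelial count in C/+ against WT was 2 without C/+ 1, 3 without C/+ 2 and 1 without WT 2, the mesothelial count 1 without C/+ 1, 0 without WT 3 and 3 without C/+ 2, WT 1 or either C/C library, the mesenchymal count 1 to 3 without any library other than C/+ 3, and the club cell count 4 or 5. In C/C against C/+ the 4 lists had 11 of 12 endothelial, 5 of 6 club cell, 6 of 7 mesothelial and 6 of 7 mesenchymal markers called lower, beside 5.33% of all tested genes. The mesothelial count was 0 and the mesenchymal count 1 without either C/C library, and the endothelial count 5 without C/C 1. In C/C against WT 1 of 12 endothelial markers was called lower, beside 1.36% of all tested genes. That count was 0 without C/C 1, C/C 2, C/+ 1, C/+ 2 or WT 2, 3 without C/+ 3 and 7 without WT 3, and 5 by DESeq2. In the same comparison both C/C sums were above all WT sums for the mesothelial list, the leukocyte list and the alveolar type 2 list, the last at 247942 and 251839 CPM in C/C, against at most 209961 CPM in WT. The mesothelial markers mostly went the other way from their sum, with 6 of 7 estimates negative and a median log2FC of -1.28. For the leukocyte and alveolar type 2 lists the mean log2 CPM overlapped between C/C and WT. The erythroid list, mostly globin genes, summed to 6.40 and 3.54 CPM in C/C, 8.39, 0.327 and 0.118 CPM in C/+, and 0.543, 0 and 0.0558 CPM in WT. It was thus higher in both C/C libraries than in any WT library and highest in C/+ 1, the library with the highest G2 and mitosis sum, with 4 of its 5 tested genes not overlapping between C/C and WT (20.8% of all tested genes had that pattern upward). By edgeR 0 of the 5 were called in C/C against WT, 2 had an unadjusted p under 0.05, DESeq2 called 0, and 2 were called without C/+ 1 and 1 without C/+ 3. Within C/+, the endothelial sum was 1099 CPM in C/+ 1, 1113 CPM in C/+ 2 and 668 CPM in C/+ 3, the club cell sum 9443, 5665 and 5104 CPM, the mesothelial sum 281, 120.03 and 133 CPM, and the mesenchymal sum 217, 79.7 and 98.5 CPM in the same libraries. The summed level of the 24 G2 and mitosis genes was 241 CPM in C/+ 1, 124 CPM in C/+ 2 and 218 CPM in C/+ 3, so the mesothelial and mesenchymal sums had its order and the endothelial and club cell sums did not. On the mean log2 CPM the mesothelial list kept that order, but the mesenchymal list did not, with 2.78 in C/+ 2 and 2.76 in C/+ 3. The leukocyte list summed to 37269.8 to 39864.6 CPM in C/C, 35314.8 to 39360 CPM in C/+, and 29527 to 33955 CPM in WT, nearly all of it from Lyz2, a lysozyme gene that alveolar type 2 cells also express, while Ptprc, which encodes CD45, had 0.118 to 1.80 CPM over the 8 libraries. The alveolar macrophage list summed to 0.294 to 10.8 CPM. By edgeR 0 of 10 alveolar type 2, 0 of 5 leukocyte, 0 of 4 alveolar macrophage and 0 of 5 erythroid markers tested were called in C/+ against WT, with 2, 0, 2 and 3 at an unadjusted p under 0.05 and 1 alveolar type 2 marker called lower by DESeq2. The part of these cells in the change of the cell cycle genes was not tested.

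**Figure D5:**
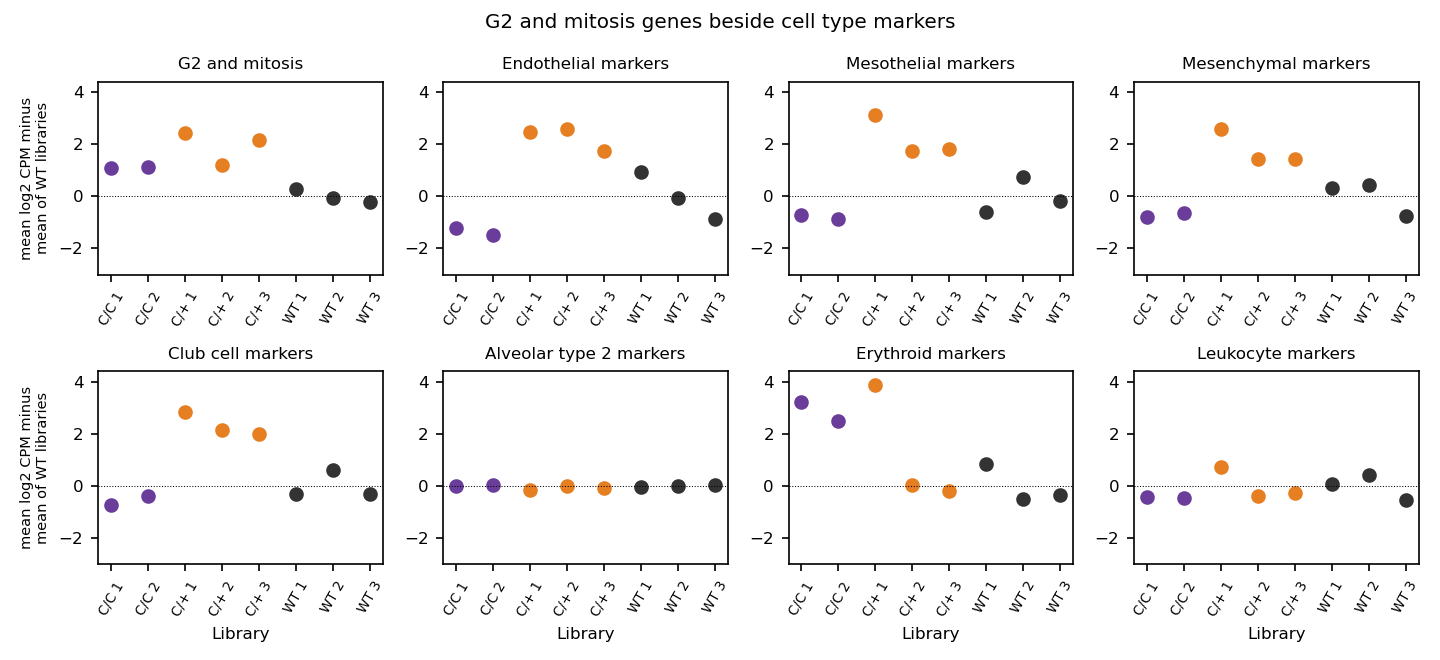
Mean log2 CPM of the G2 and mitosis list and of 7 lists of cell type markers in each library, minus the mean of the WT libraries, with C/C in purple, C/+ in orange and WT in black. In C/+ the endothelial, mesothelial, mesenchymal and club cell markers stand above WT together with the G2 and mitosis genes, in C/C the G2 and mitosis and the erythroid panels have both libraries above all WT libraries, and the alveolar type 2 panel is flat.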

How the data were processed

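RNA was extracted with a spin-column kit and DNase, and stranded mRNA libraries were made, per the labels. The deposited table holds whole-number counts per gene for 43432 mouse Ensembl identifiers in 8 libraries, not normalised by the authors. The submitters' processing notes name STAR 2.4.2a and DESeq2 without their roles, and the human build GRCh38. The counting tool and annotation were not given in those notes. Symbols and positions came from GENCODE M21 (GRCm38), which named 42462 identifiers and left 970 without a symbol.

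Genes were filtered with filterByExpr and libraries scaled by TMM. The quasi-likelihood model of edgeR 4.0.16 (R 4.3.3) had 1 mean for each genotype and used all 8 libraries, with two-sided tests. It was also tested on data simulated with the means and spread estimated from these libraries. In each comparison 100 randomly drawn genes were changed 2-fold and 100 were changed 4-fold, alternately up and down. Of these the model found 64% and 89% in C/+ against WT and 60% and 80% in C/C against C/+. In C/C against WT it found 53% and 73%. False calls numbered 9, 12 and 8 in the same order. List means of log2 CPM used a prior count of 2. Counting error is small above a few CPM and adds to the spread below 1 CPM.

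Members and lists were chosen with earlier results of these data known. Every member is accounted for. Values per library are given for Mki67, Top2a, Pcna, the D-type cyclins, the 4 members of highest mean CPM in each phase list and further members chosen after their values were seen. From the other lists, up to 4 called genes of highest mean CPM per comparison are named, with Cdkn1a, Cdkn1b, Cdkn1c and Cdkn2a, and some further called genes seen later. Library names follow the replicate numbers of the titles. Libraries of a group differed by more than sampling noise, with a chi-square of 12.2 to 73.5 per gene. Alternatives were other size factors, DESeq2 1.42.0, other filters, the compared groups alone, sex, a replicate block, a 1.5-fold threshold and leaving out each library. Their use on the lists beyond the members was added after the data were seen.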

Additional observations from a re-analysis of the deposited data

How the results depend on the processing

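For the 23 members called in any comparison, no alternative run turned the direction of an estimate. These 23 were picked by calls made in the same libraries, so their kept direction is not separate support. The other 22 changed sign in 4 of 346 refits of C/+ against WT, in 26 of 346 of C/C against C/+, and in 23 of 346 of C/C against WT. Leaving out a library gave estimates for C/+ against WT of -0.045 to 0.11 for Ccnd1 (negative without C/+ 1, and -0.01 without WT 3), of -0.22 to 0.041 for Bub1 and of -0.0025 to 0.17 for Bub1b.

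For C/+ against WT (22 members, 2 of S phase, 20 of G2 and mitosis and 585 genes in all called), DESeq2 called 4 S phase members and 1263 genes, no low-count filter 1299 genes, the compared groups alone 356 genes, and sex as a covariate 5 S phase members and 1700 genes. A test against a 1.5-fold change called 10 members, 1 of S phase and 9 of G2 and mitosis, and 131 genes. For C/C against C/+ (0 members and 1056 genes), DESeq2 called 6 members, 6 of them of G2 and mitosis, and 1609 genes, no filter 7, 7 and 1614, and the 1.5-fold test 564 genes. For C/C against WT (3, 1, 2 and 444), DESeq2 called 11 members, 2 of S phase, 9 of G2 and mitosis and 1476 genes, no filter 12, 2, 10 and 1456, and the compared groups alone 7 members, 2 and 5. Sex as a covariate called 6 members, 4 of G2 and mitosis and 1348 genes, and the 1.5-fold test 0 members and 21 genes. The cause of these moves was not tested. The share of calls that were higher was 87.2% for C/+ against WT, but 72.4% by DESeq2, 72.7% with no filter and 61.6% with sex.

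The replicate block (same-numbered libraries as a term) called 18 members, 3 of S phase and 15 of G2 and mitosis, and 457 genes for C/+ against WT. It called 0 and 799 for C/C against C/+, and 1 member, 0 of G2 and mitosis and 176 genes for C/C against WT. The labels do not say whether the numbers pair the libraries. Deviations from the group means of the 7 same-numbered pairs correlated at -0.206 to 0.0870, and 0 of 3 C/+ libraries correlated best with their own number in WT. Such deviations sum to 0 within a group of 2 or 3 libraries, so these correlations cannot decide on a pairing.

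Leaving out each library gave 5 to 23 members, 0 to 3 of S phase and 5 to 19 of G2 and mitosis, and 103 to 729 genes for C/+ against WT. It gave 0 to 11 members, 0 to 1 and 0 to 10, and 185 to 1308 genes for C/C against C/+, and 0 to 3 members, 0 to 1 and 0 to 3, and 30 to 782 genes for C/C against WT. Median estimates were 0.31 to 0.56 for S phase and 1.93 to 2.53 for G2 and mitosis in C/+ against WT, -0.37 to -0.12 and -1.36 to -0.75 in C/C against C/+, and 0.26 to 0.54 and 0.82 to 1.31 in C/C against WT. Ccnb1 had 0 counts in 1 library and Cdkn2a in 6.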
